A study of Danio rerio with 5 samples.

Results

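Neutrophil granule and receptor genes were examined in whole kidneys of adult zebrafish (Danio rerio) with and without functional runx1. The genes were given as 7 names: the granule genes mpx, lyz, npsn, mmp13a and mmp9, the cytokine receptor gene CSF3R and the oxidase gene ncf1. They were looked up by symbol, in any letter case, among 32520 Ensembl gene IDs, of which 29201 had a symbol. 6 of the 7 names matched 1 row each, mmp9 as MMP9 and ncf1 as NCF1. mpx, the myeloid peroxidase of zebrafish, matched no row by that symbol, so no value is given under that name. The symbols EPX and epx, which in human naming stand for eosinophil peroxidase, were listed for 1 row each (ENSDARG00000019521 and ENSDARG00000012535). Both rows are described beside the members, and the name table does not say whether either is mpx.

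Messenger RNA was sequenced from 5 libraries of kidneys from EK-strain fish aged 2.5 months, each a pool of 3 kidneys. Of these, 3 were wild type, numbered 1, 2 and 3. Their siblings homozygous for the runx1 allele named del8 or hg96 gave the 2 libraries of the runx1 null group, numbered 5 and 6. The allele is carried in the germline, so every tissue of the null kidneys had it. The labels do not say whether any fish contributed to more than 1 pool, so p-values measure the spread between these pools.

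Neutrophils are the phagocytes that arrive first at sites of infection or injury. In adult zebrafish they form in the kidney marrow, the tissue between the nephrons, from granulocyte progenitors. They carry ready-made granules with lysozyme, peroxidase and proteases that digest microbes and matrix, and they assemble an NADPH oxidase that makes reactive oxygen. The cytokine Csf3 (G-CSF) acts through Csf3r to drive their production and survival. Runx1 is a transcription factor required for blood stem cells to form, and the comparison asks how neutrophil gene levels differ in fish that reach adulthood without it.

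The libraries held between 27631376 and 33752278 counts in genes, and 3 counts corresponded to between 0.0876 and 0.113 CPM (counts for every 1000000 of effective library size). Marker genes showed that the kidneys carried different amounts of other tissues. Summed over 7 ovary genes, wild type 2 reached 562 CPM and runx1 null 6 reached 3501 CPM, against 3.6 to 9.03 CPM in the other libraries. The ovary gene zp3 had 0 counts in wild type 1, and figla had 0 in wild type 3 and runx1 null 5. The nephron sum ranged from 13.5 CPM in wild type 3 to 2394 CPM in runx1 null 5, with the rest between 276 and 451 CPM. The erythroid sum ran from 10143 to 16305 CPM in wild type, and stood lower in both null pools, at 8802 CPM in library 5 and 1215 CPM in library 6. The targeted gene, listed as RUNX1, had from 87 to 139 counts in wild type, 184 in runx1 null 5 and 56 in runx1 null 6, so its overlapping counts did not check the genotype labels.

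The neutrophil genes differed widely between libraries of 1 genotype, and no genotype difference was called. Of 20386 tested genes, 8516 had a negative log2 fold change (null over wild type). Among the 6 matched members, 5 had lower mean levels in the null kidneys, and 1, MMP9, had a slightly higher mean. None passed an adjusted p of 0.05 in edgeR's quasi-likelihood test, as 0 of 20386 tested genes did (0%), and none of the 6 reached an unadjusted p of 0.05, which 890 genes (4.37%) did. The DESeq2 Wald test called 0.427% of the genes it adjusted and none of the members. All 6 members overlapped between the genotypes. Over all tested genes, both null libraries lay below every wild-type library for 14.8% and above it for 11.1%. All 6 were lowest in runx1 null 6, as were 36.4% of all tested genes.

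**Figure D1:**
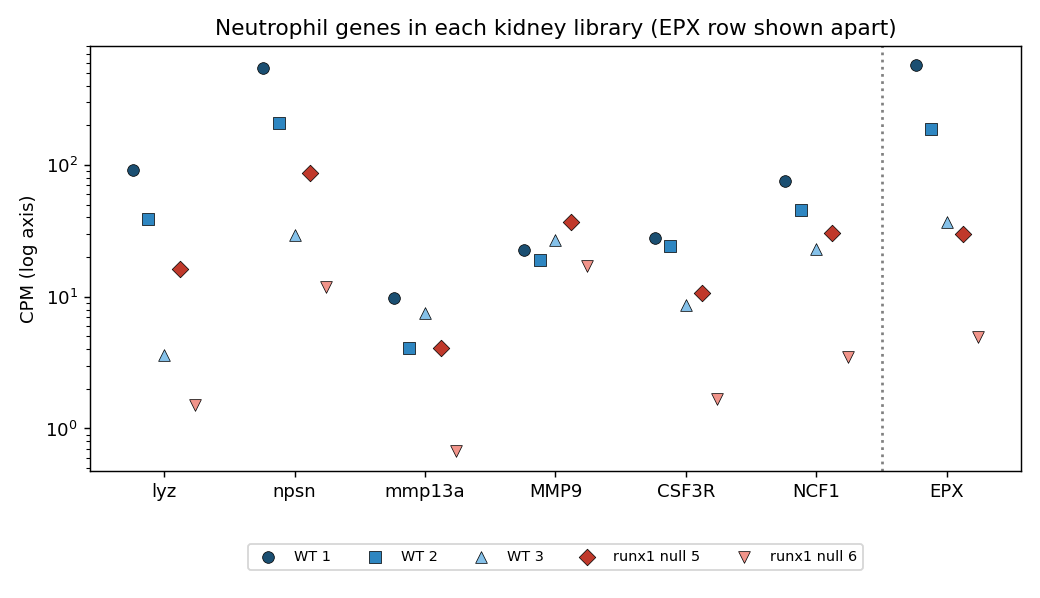
CPM of each matched member, and of the row listed as EPX, in each of the 5 libraries on a log axis; every symbol is 1 library. runx1 null 6 is the lowest for each gene, runx1 null 5 falls among the wild-type libraries for the 5 genes lyz, npsn, mmp13a, CSF3R and NCF1, and MMP9 spans only 2.19-fold.

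Of the granule genes, lyz and npsn moved over the widest range and did so together. lyz (ENSDARG00000057789) encodes lysozyme C, which cuts bacterial cell walls. Wild type 1, 2 and 3 had 3113, 1083 and 95 counts of it, and runx1 null 5 and 6 had 506 and 52. The corresponding levels were 91.3, 39 and 3.59 CPM against 16.3 and 1.52 CPM. The highest library was wild type 1, and runx1 null 5 stood between wild type 2 and 3, so the groups overlapped. The wild-type libraries alone spanned 25.5-fold and the 2 null libraries 10.7-fold. As a log2 fold change (null over wild type) edgeR estimated -2.33, with a standard error of 1.55, a 95% interval from -6.15 to 1.49 and an adjusted p of 0.612.

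npsn (ENSDARG00000010423) encodes nephrosin, a secreted metalloprotease of the astacin family first known from fish blood-forming tissue. Its counts were 18706, 5736 and 783 for wild type 1, 2 and 3 (549, 207 and 29.6 CPM). For runx1 null 5 and 6 they were 2709 and 409 (87.1 and 11.9 CPM). The order of the libraries was that of lyz, with runx1 null 5 between wild type 2 and 3. Its log2 fold change was -2.40, with a standard error of 1.41, an interval from -5.88 to 1.08 and an adjusted p of 0.612 in edgeR. In the RefSeq table of assembly GRCz12tu, the coding genes next to npsn are c6ast3 and c6ast1, of the same family. Both were low in these counts, with c6ast1 at most at 4.31 CPM, in wild type 1, and c6ast3 at most at 4.23 CPM, in runx1 null 6. Neither neighbour followed the library order of npsn.

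The metalloprotease genes behaved differently from lyz and npsn and from each other. mmp13a (ENSDARG00000012395) encodes a collagenase. Wild type 1, 2 and 3 had 336, 113 and 198 counts, or 9.86, 4.07 and 7.48 CPM, and runx1 null 5 and 6 had 128 and 23 counts, or 4.11 and 0.671 CPM. Here wild type 2, not wild type 3, was the lowest of its group. The overlap rested on runx1 null 5 and wild type 2, whose exact 95% Poisson intervals, which cover counting error only, were 3.43 to 4.89 CPM and 3.36 to 4.9 CPM. The log2 fold change was -1.58 with a standard error of 0.98, an interval from -3.98 to 0.83 and an adjusted p of 0.612 in edgeR.

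mmp9 (listed as MMP9, ENSDARG00000042816) encodes gelatinase B, which is stored in neutrophil granules and is also made by macrophages and epithelia when tissue is injured. Its counts in wild type 1, 2 and 3 were 778, 530 and 711 (22.8, 19.1 and 26.9 CPM), and 1158 and 582 (37.2 and 17 CPM) in runx1 null 5 and 6. The null libraries were thus the highest and the lowest of the 5. The mean level was 22.9 ± 3.87 CPM (SD, n = 3) for wild type, and for the null kidneys it was 27.1 ± 14.3 CPM (SD, n = 2). The log2 fold change was 0.24 with a standard error of 0.53, an interval from -1.06 to 1.54 and an adjusted p of 0.847 in edgeR. Without runx1 null 5 the sign turned, at -0.46.

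CSF3R and NCF1, the receptor and oxidase members, shared the library order of lyz and npsn over a narrower range. CSF3R (ENSDARG00000045959) encodes the receptor for Csf3. In wild type 1, 2 and 3 its counts were 955, 678 and 230, at 28, 24.4 and 8.69 CPM. Both null pools had fewer than wild type 1 and 2, with 331 and 57 counts, or 10.6 and 1.66 CPM. runx1 null 5 again stood just above wild type 3. The log2 fold change was -1.73 with a standard error of 0.99, an interval from -4.18 to 0.72 and an adjusted p of 0.612 in edgeR.

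ncf1 (listed as NCF1, ENSDARG00000033735) encodes p47phox, the cytosolic subunit that assembles the NADPH oxidase. Wild type 1, 2 and 3 held 2571, 1265 and 615 counts of NCF1, and runx1 null 5 and 6 held 951 and 119. These levels were 75.4, 45.6 and 23.2 CPM for wild type, against 30.6 and 3.47 CPM without runx1. The null libraries differed from each other by 8.8-fold, more than the 3.25-fold among the wild-type libraries. The log2 fold change was -1.50 with a standard error of 1.02, an interval from -4.01 to 1.02 and an adjusted p of 0.612 in edgeR.

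Of the rows listed as EPX and epx, EPX (ENSDARG00000019521) was the one at a high level, and it separated the genotypes. Counts were 19524, 5207 and 978 for wild type 1, 2 and 3 and 926 and 169 for runx1 null 5 and 6. In CPM these were 573, 188 and 36.9 against 29.8 and 4.93. The groups did not overlap, with runx1 null 5 a little under wild type 3, and the same held in this direction for 14.8% of all tested genes. The log2 fold change was -3.94 with a standard error of 1.46, an interval from -7.53 to -0.34, an unadjusted p of 0.0366 and an adjusted p of 0.612 in edgeR. The DESeq2 Wald test gave an adjusted p of 0.118. The row listed as epx had at most 20 counts in a library.

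**Figure D2:**
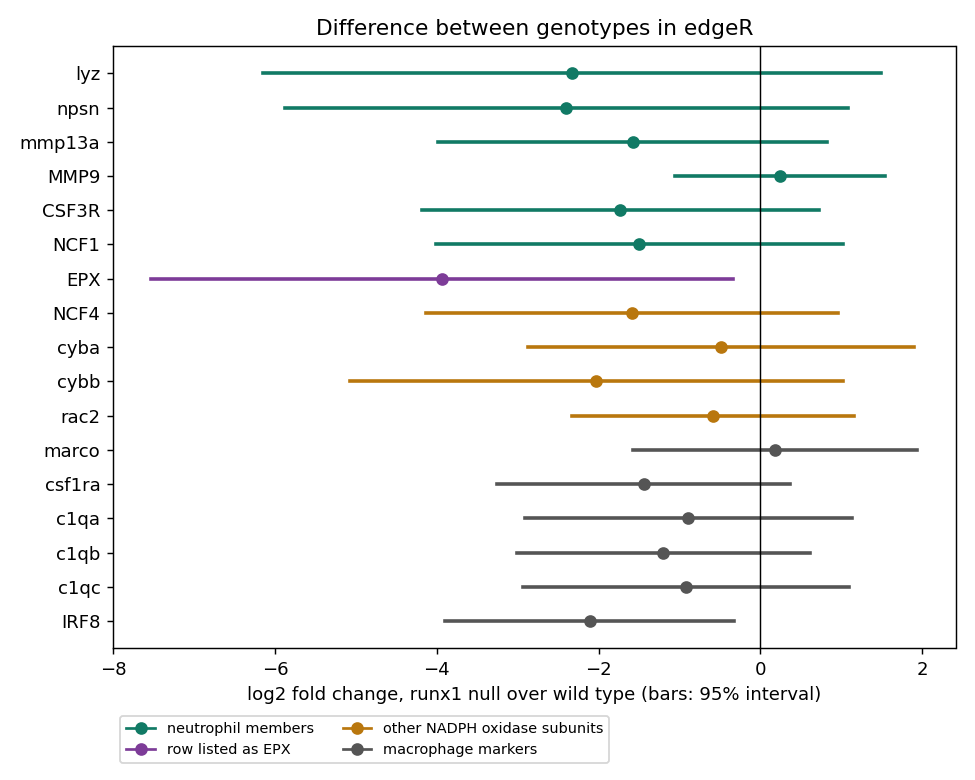
Log2 fold change, runx1 null over wild type, with its 95% interval in edgeR, for the 6 matched members, the EPX row, other NADPH oxidase subunits and the macrophage markers. The intervals of the 6 members all include 0, and that of EPX ends at -0.34.

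Markers of other tissues and blood cells also differed between the libraries, but not in 1 order with the neutrophil genes. The erythroid sum was highest in wild type 3, at 16305 CPM, the wild-type library with the lowest member sum. runx1 null 6, the lowest library for each member, also had the highest ovary sum and the lowest erythroid sum. Summed CPM of the 6 macrophage markers ranged from 172 to 366 in wild type and was 343 and 81 in runx1 null 5 and 6, so it too was lowest in runx1 null 6. marco alone gave 220 of the 343 CPM in runx1 null 5. By gene, 5 of the 6 markers had a negative fold change, as did 8516 of 20386 tested genes, and 1, marco, a positive one. Of the 6, csf1ra and IRF8 were lower in both null libraries without overlap, beside 14.8% of all tested genes. Summed CPM of the matched members was 776, 339 and 99.4 for wild type 1 to 3, against 186 and 36.2. The part of these tissue contents in the neutrophil values was not tested. In such bulk libraries, fewer neutrophils and less RNA of these genes per neutrophil cannot be told apart.

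The comparison was also made within the libraries with and without ovary RNA. Within 1 side there were too few libraries for a test, so ovary RNA was also added to the edgeR fit as a covariate, an alternative chosen after seeing the data. None of the 6 members passed in that fit, as none of all tested genes did, although 1834 genes had an unadjusted p under 0.05. The members' adjusted p there lay between 0.549, for mmp13a at a log2 fold change of -1.68, and 0.846, for MMP9 at 0.27. Between runx1 null 6 and wild type 2, log2 CPM differed by -4.63 for lyz, -4.11 for npsn and -3.83 for CSF3R. It differed by -3.69 for NCF1, -2.49 for mmp13a and -0.17 for MMP9. The differences of runx1 null 5 from the average of wild type 1 and 3 were smaller for 5 of the 6, at -0.16 for lyz, -0.55 for npsn, -0.55 for CSF3R, -0.45 for NCF1, -1.05 for mmp13a and 0.59 for MMP9. 5 of the 6 members were lower on both sides. The share of all tested genes lower on both sides was not counted, so this count has no baseline. On the second side, mmp13a was the only member whose null value lay below both wild-type values, and MMP9 the only one whose null value lay above both. For EPX the differences were -5.23 and -2.29.

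Ratios between members within a library do not depend on how libraries are scaled. Of the 15 pairs, lyz with npsn and CSF3R with NCF1 were the tightest. The log2 ratio of lyz to npsn was -2.59, -2.40 and -3.02 for wild type 1 to 3 and -2.42 and -2.92 for runx1 null 5 and 6, a span of 0.62 over libraries in which lyz itself spanned 60.2-fold. The log2 ratio of CSF3R to NCF1 was -1.43, -0.90 and -1.41, against -1.52 and -1.03 without runx1, also a span of 0.62. The genotype means of these pairs differed by 0.00 and -0.03, a difference that their small span over all libraries limits in advance.

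The member ratios that separated the genotypes all held MMP9, and none of them passed a test. The log2 ratio of MMP9 to CSF3R was -0.29, -0.35 and 1.62 in the wild-type libraries, but 1.80 and 3.30 in the null ones. That of MMP9 to NCF1 was -1.72, -1.25 and 0.21, against 0.28 and 2.27. That of mmp13a to MMP9 was -1.21, -2.21 and -1.84, against -3.16 and -4.53. These 3 pairs, each with MMP9, were the only ones of the 15 whose ratios did not overlap between the genotypes. The log2 fold change of MMP9 itself, 0.24, equalled the median of all tested genes. How many other genes separate from the same 3 partners was not counted. MMP9 was higher against its partner in both null libraries each time, with a mean difference of 2.23 against CSF3R, and one of -2.09 for mmp13a over MMP9. Over NCF1 its mean log2 ratio was 1.28 in the null group against -0.92 for wild type. In a two-sided exact permutation test over libraries, for which 0.1 is the smallest p possible, the pairs in this order gave p of 0.2, 0.2 and 0.1, and each was 0.9 after Benjamini-Hochberg adjustment over the 15 pairs.

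**Figure D3:**
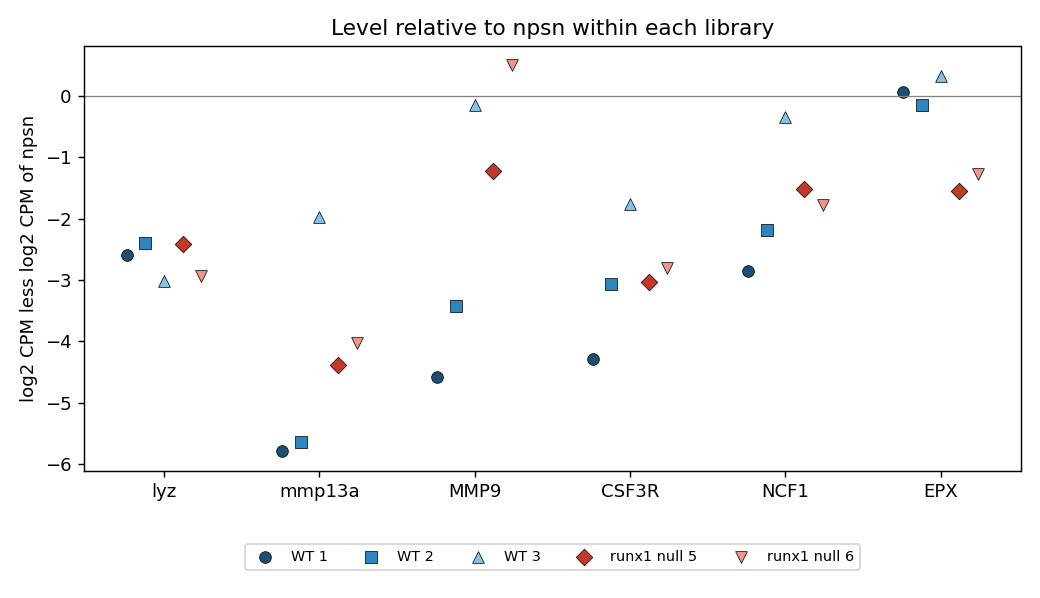
Log2 CPM of each gene less log2 CPM of npsn in the same library; every symbol is 1 library. lyz stays within 0.62 of log2 over the 5 libraries, MMP9 spreads over 5.09, and the null libraries lie apart from wild type for EPX.

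The EPX row also stood apart by this measure. Its log2 ratio to npsn was 0.06, -0.14 and 0.32 for wild type 1 to 3, against -1.55 and -1.26 for runx1 null 5 and 6. Among the wild-type libraries npsn varied 18.6-fold and EPX 15.5-fold, while their ratio stayed within 0.46 of log2. In this ratio the null values were all under the wild-type ones. This held for 0.0638% of the tested genes other than npsn, 13 of 20385 with EPX counted. The choice of npsn keeps that share low, as its own log2 fold change was -2.40 against a median of 0.24 over all genes. The share is thus no measure of how rare EPX is, and in CPM 14.8% of all tested genes separated as EPX did. The gap in the ratio between the lowest wild-type and the highest null value was 1.12, and 3 genes had a gap at least as large. The other 2, named after their values were seen, were spink2.10 and si:dkey-238d18.8, with means over the libraries of 1.99 and 10.6 CPM against 166 CPM for EPX. Against lyz the log2 ratio of EPX was 2.65, 2.26 and 3.34, against 0.87 and 1.66, also without overlap. Its log2 ratios to MMP9, CSF3R and NCF1 did not overlap either, but spanned 4.19, 2.27 and 2.26 among the wild-type libraries. The lowest wild-type and highest null values were 0.46 and -0.32 for MMP9. They were 2.08 and 1.53 for CSF3R, and 0.67 and 0.50 for NCF1. How many other genes separate in these ratios was not counted. The log2 ratio of EPX to mmp13a did overlap, at 5.85, 5.50 and 2.29 for wild type and 2.84 and 2.76 without runx1. No test was made of these ratios, because the row was singled out for its values.

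The order wild type 1, wild type 2, runx1 null 5, wild type 3, runx1 null 6, from high to low, was held by 4 of the 6 members: lyz, npsn, CSF3R and NCF1. Of all tested genes, 277 (1.36%) had it, as did 4 of 12 myeloid transcription factors and 6 of 17 other neutrophil genes. In other related lists it was rarer. It was held by 1 of 10 genes of the CSF3 pathway, CSF3R itself, and by 1 of 10 chemokine and adhesion genes. Of the matrix metalloproteases and TIMPs, 0 of 23 had it. None of the 6 macrophage and 7 erythroid markers did, but the macrophage genes c1qa, c1qb and c1qc had it with wild type 1 and 2 exchanged. The order was noticed in the members first.

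Other genes of the NADPH oxidase had a library order like that of NCF1. This enzyme joins the membrane proteins encoded by cybb and cyba with cytosolic proteins, those of NCF1 and NCF4 among them, and the small GTPase of rac2. With NCF1 counted, 4 of the 5 genes described had the same library order. The fifth, cyba, did not, as runx1 null 5 (35.3 CPM) lay above wild type 2 (27.9 CPM) and almost level with wild type 1 (35.6 CPM). cybb, the catalytic subunit, stood at 68.2, 29.5 and 13.5 CPM for wild type 1 to 3, against 16.8 and 1.34 CPM. Its log2 fold change was -2.03 with a standard error of 1.24. The log2 fold change of NCF4 was -1.59, that of rac2 -0.59 and that of cyba -0.48. None of the 5 genes passed in edgeR and all overlapped, with a median of -1.50, against 0.24 over all genes.

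Of the genes around CSF3R, the ligand genes csf3a and csf3b were barely detected, with no more than 18 and 23 counts in a library. 9 of the 10 other genes of the CSF3 pathway were tested and none passed. Of these, 4 were lower in the null group without overlap, beside 14.8% of all tested genes, namely jak2a, the gene listed as JAK2, stat5a and stat5b, which encode kinases and transcription factors that also serve the erythropoietin receptor. jak2a stood at 856, 785 and 1493 CPM in wild-type kidneys and at 515 and 104 CPM in null ones, a log2 fold change of -1.75 with 0.612 as its adjusted p in edgeR. One of the 2 genes listed as SOCS3, which encodes an inhibitor of cytokine signalling, lay higher in both null libraries (ENSDARG00000026611), at 54.5 and 47.9 CPM against 27.9 to 32.7 CPM. Over all tested genes, 11.1% lay higher in this way.

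The family of matrix metalloproteases and their TIMP inhibitors did not move as one. Of 23 tested genes, mmp13a and MMP9 included, 11 had negative and 12 positive fold changes, with a median of 0.05. MMP2, the one with the highest mean CPM, stood at 45.6, 25.8 and 79.3 CPM for wild type 1 to 3, against 101 and 24.8 CPM, and the groups overlapped. 3 of the 23 genes were lower in both null libraries without overlap, a share close to the 14.8% of all tested genes. One gene listed as TIMP4 (ENSDARG00000102617) stood at 40.2, 20.9 and 10.2 CPM for wild type 1 to 3 and at 7.55 and 0.963 CPM for the null pools, a log2 fold change of -2.48 with 0.612 as its adjusted p in edgeR. mmp23bb and MMP28 had -1.89 and -1.61. The closest copy of mmp13a by name, mmp13b, did not follow it, with no library above 66 counts.

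Among 12 myeloid transcription factors, 11 had a negative fold change, beside 8516 of 20386 tested genes, and none of the 12 passed in edgeR. In runx1 null 6, 11 of the 12 were lowest, beside 36.4% of all tested genes. cebpg, which encodes a C/EBP family factor and had the highest mean CPM of these, overlapped at 91, 123 and 170 CPM for wild type 1 to 3, against 71.3 and 100 CPM. The gene listed as SPI1 (ENSDARG00000000767), for the myeloid master regulator PU.1, stood at 73.6, 51.9 and 18.1 CPM for wild type 1 to 3 and at 20.3 and 3.39 CPM for the null pools, an order like that of CSF3R. Its log2 fold change was -2.01, with an interval from -4.47 to 0.44. IRF8, a regulator of macrophage fate that is also among the macrophage markers, and GFI1B, known for its role in red cells and thrombocytes, were lower in both null libraries, at -2.11 and -1.61. They were the 2 of the 12 without overlap, beside 14.8% of all tested genes lower in this way.

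Of 17 other genes listed for neutrophils, 14 had a negative fold change, beside 8516 of 20386 tested genes, and none of the 17 passed. In runx1 null 6, 14 of the 17 were lowest, beside 36.4% of all tested genes. srgn, for the granule proteoglycan serglycin, had the highest mean CPM and overlapped, at 421, 198 and 96.9 CPM for wild type 1 to 3, against 256 and 36.2 CPM. illr4 and fcer1gl, which encode an immune lectin-like receptor and an Fc receptor gamma chain-like adaptor, lay lower in both null libraries, at -1.53 and -1.73. pglyrp6 lay higher in both, at no more than 17 counts. Of the 17 genes, 2 were thus lower and 1 higher without overlap, beside 14.8% and 11.1% of all tested genes. cfl1l went furthest against the rest, with 8452 counts in runx1 null 6 and at most 1642 elsewhere.

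Of 10 genes for chemokines, their receptors and adhesion, 5 had negative and 5 positive fold changes. CXCL12, for a CXCR4 ligand, had the highest mean CPM and overlapped, at 489, 226 and 54.3 CPM for wild type 1 to 3, against 1617 and 283 CPM. The receptor genes CXCR1 (ENSDARG00000054975) and CXCR4 (ENSDARG00000041959) were lower in both null libraries, at -1.54 and -1.68. For this CXCR1 row the gap was small, with 1.74 CPM (46 counts) in wild type 3 and 1.7 CPM (53 counts) in runx1 null 5. A second row of each symbol overlapped, at -0.41 for cxcr1 (ENSDARG00000052088) and -0.38 for CXCR4 (ENSDARG00000057633). CXCR4 holds neutrophils in the marrow and CXCR1 answers the chemokine Cxcl8. Levels of the CXCR4 row without overlap were 104, 120 and 56.9 CPM for wild type 1 to 3, against 52.5 and 5.69 CPM. cxcl12b, a second gene for that ligand, was higher in both, at 12.3 and 2.25 CPM against 1.12 to 1.59 CPM, a log2 fold change of 2.39 with 0.612 as its adjusted p in edgeR. Of the 10 genes, 2 were thus lower and 1 higher without overlap, beside 14.8% and 11.1% of all tested genes.

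**Figure D4:**
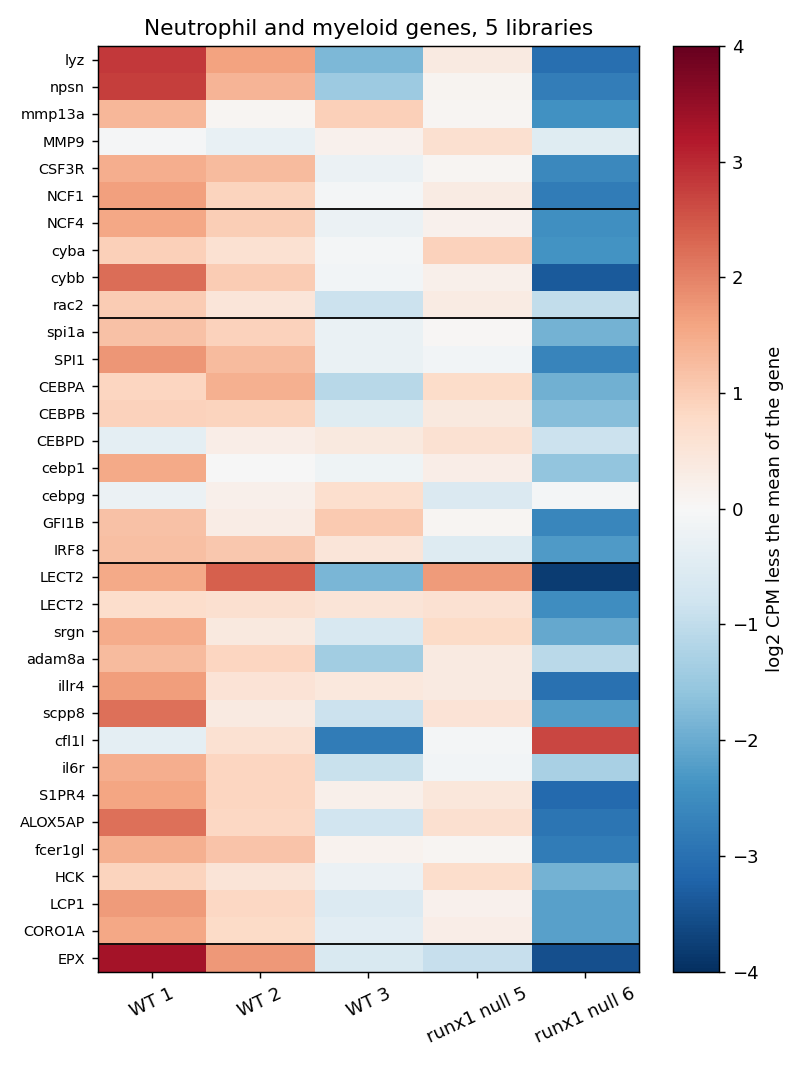
Log2 CPM less the gene's own mean for 34 neutrophil and myeloid genes with a mean of at least 5 CPM, by library; red is above and blue below the mean, and black lines part the gene lists. 31 of the 34 are lowest in runx1 null 6, and MMP9 is the palest of the members.

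The genes whose profile over the 5 libraries was closest to the mean profile of the members were CORO1A, SLA, FMNL1, LCP1, NCF4 and VASP. They were picked from 12534 genes by the root mean square difference of centred log2 CPM, which was between 0.09 and 0.14 for these and had a median of 1.50. CORO1A, LCP1, FMNL1 and VASP encode proteins of the actin cytoskeleton and SLA an adaptor of immune receptor signalling. CORO1A stood at 111, 63.8 and 28.2 CPM for wild type 1 to 3, against 46 and 8.26 CPM. Among the members, lyz and npsn were nearest each other at 0.26, as were CSF3R and NCF1 at 0.24. MMP9 was farthest from lyz, at 2.12.

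The members were also compared relative to other blood cells. With libraries scaled to 6 macrophage marker genes, the median log2 fold change of all genes was 1.69, and that of the members was -1.41 for lyz, -1.39 for npsn, -0.87 for mmp13a, -0.79 for CSF3R and -0.70 for NCF1, but 1.36 for MMP9. None of these passed in edgeR, with adjusted p between 0.439 and 0.725, whereas 16.2% of all tested genes did. With scaling to 7 erythroid marker genes, the median of all genes was 2.58, and no gene passed in edgeR, although 9513 had an unadjusted p under 0.05. The members then ranged from -1.23 for lyz to -0.07 for mmp13a, with MMP9 at 2.36 and an adjusted p of 0.105 in edgeR. All 5 members with a lower mean in the null group thus kept their sign under both scalings, at a smaller size. Under erythroid scaling each of these 5 estimates was smaller than its standard error, which was 0.72 for mmp13a and 1.41 for lyz. MMP9 lay higher in both null libraries without overlap under each scaling. So did 30.5% of all tested genes under macrophage scaling and 59.1% under erythroid scaling, and MMP9 stood 0.33 and 0.22 of log2 under the median of all genes.

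**Figure D5:**
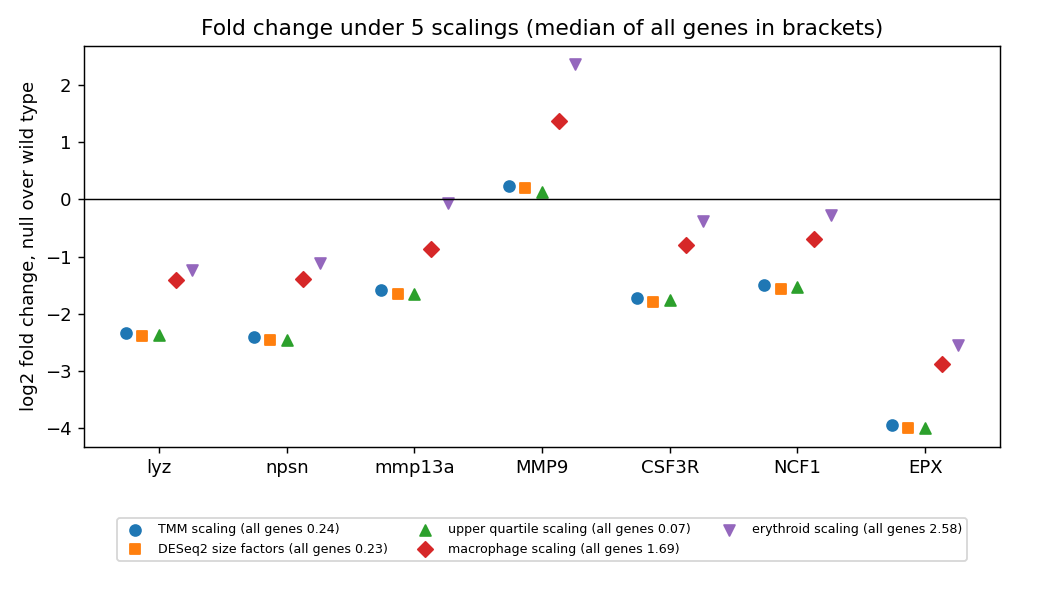
Log2 fold change, null over wild type, of the members and EPX under 5 ways of scaling libraries, with the median of all genes in brackets. TMM, DESeq2 and upper quartile scaling nearly coincide, and the macrophage and erythroid scalings raise every gene, leaving EPX the lowest at -2.87 and -2.55.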

How the data were processed

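Whole-kidney RNA of 3 wild-type and 2 runx1 null pools was sequenced as paired-end TruSeq v2 libraries, per the labels' protocols. The authors deposited raw counts, 1 whole number for each Ensembl gene and library. The submitters' processing notes name GRCz11, HISAT2 2.2.1.0, HTSeq 0.11.4 and DESeq2. The annotation and strand setting are not given in the sources used here, so overlapping genes and close copies are uncertain. Rows that name no gene held between 28.1% and 39.4% of all reads per library and were left out.

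Names came from a table of IDs and symbols. Paralog names without a match were looked up without their suffix, a step added after seeing the table. No lengths were used, so CPM set side by side or ranked between genes is not corrected for gene length. Members and lists were chosen with earlier results of these data known. All members are named, with the genes of related lists whose groups did not overlap and, of the rest, some of the 4 with the highest mean CPM in a list. The rows listed as EPX and epx were taken up after the tables were seen, and the ratios of EPX after their values were seen. Outside this rule, csf3a, csf3b, mmp13b, c6ast1 and c6ast3 were also named after their values were seen. The statistic of the permutation test, the absolute difference of means, was settled after first p-values were seen; no pair passed either way. A gene of the oxidase list is not reported here. The mean profile for likeness was to use 7 members and used the 6 that matched.

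Genes were filtered with filterByExpr (minimum count 10, total 15), scaled with TMM, and tested two-sided in edgeR 4.0.16 (quasi-likelihood, robust) with Benjamini-Hochberg adjustment over 20386 genes. Log2 CPM used a prior count of 2. The tests were tried on simulated data with changed and unchanged genes. With the spread of these libraries, edgeR called none of the changed genes and a few unchanged ones, and DESeq2 called more unchanged than changed genes. With a smaller spread, edgeR called all changed genes and some unchanged ones. The absence of a call here is thus no sign that a gene did not change. Alternatives were other scalings, filters and tests, DESeq2 1.42.0, leaving out libraries and, added after seeing the data, an ovary covariate. R 4.3.3, Python 3.11.15, scipy 1.17.1, pandas 2.3.3 and matplotlib 3.10.9 were used.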

Additional observations from a re-analysis of the deposited data

How the results depend on the processing

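No paired analysis was possible because wild-type pools are numbered 1 to 3 and null pools 5 and 6. The count of members past the threshold was 0 under all 16 alternatives, the ovary covariate chosen after seeing the data included. Over all genes, macrophage scaling gave 3301 calls and the DESeq2 Wald test 81, against 0 in edgeR with TMM; the other alternatives gave 0. The members' median log2 fold change of -1.65 was -0.32 under erythroid scaling and, leaving out 1 library at a time, lay between -3.73 (without runx1 null 5) and -0.83 (without runx1 null 6). The count of members with both null libraries below all wild-type libraries, 0 with TMM, was 1 with DESeq2 size factors (mmp13a), 1 with macrophage scaling (CSF3R), and 1 without wild type 2 and runx1 null 6 together (mmp13a). Leaving out 1 library at a time, it ranged from 0 to 6. It was 4 without wild type 3 (lyz, npsn, CSF3R, NCF1) and 6 without runx1 null 5. There 1 null library remained and was assumed to vary like the others. Over all genes the same held for 8173 of 21515 without runx1 null 5 and for 3542 of 20155 without wild type 3. It held for 3247 of 20386 with DESeq2 size factors, 310 with macrophage scaling and 7991 of 20806 without wild type 2 and runx1 null 6 together. EPX, already apart with TMM, stayed apart under every alternative except erythroid scaling. Other tests on the same CPM could not change this, and leaving out libraries could do so only by rescaling the rest. Its staying apart is thus informative only for the other scalings. The counts of 6 and 4 follow from the library order. Each member was lowest in runx1 null 6. For lyz, npsn, CSF3R and NCF1, wild type 3 was the only wild-type library below runx1 null 5. The cause of the other shifts was not tested.

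Of 413 gene values under the alternatives, 399 kept their direction without passing. Leaving out 1 library at a time, MMP9 lay between -0.46 (without runx1 null 5) and 0.74 (without runx1 null 6), epx between -3.47 and 0.88 and cyba between -2.99 and 0.41, at the same libraries, and epx was 0.10 without wild type 1. Under erythroid and macrophage scaling epx turned to 1.04 and 0.43 and cyba to 0.70 and 0.21. Without both runx1 null 6 and wild type 2 they were 0.61 and 0.37. rac2 turned to 1.34 and 0.76 under these scalings, and CORO1A to 0.13 under erythroid scaling. cxcl12b passed under macrophage scaling. A prior count of 0.5 left the members lower on both sides at 5 and the separated pairs at 3.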
